A study of Mus musculus with 16 samples.

Results

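Hmgcs1, Sqle, Idi1, Fdft1, Lss, Dhcr7 and Insig1 are 7 genes of cholesterol synthesis and of its feedback control, chosen by their symbols among the 26625 entries of a gene count table from mouse medial prefrontal cortex (mPFC). They were chosen with earlier results of these data known. All 7 were found in the table and all 7 passed the filter on low counts, which left 18826 entries for testing. RNA came from 16 male C57BL/6 mice of 8 to 10 weeks, and each library held one mouse. Every mouse had received a bilateral injection of an AAV virus into the mPFC 20 days before behavioural testing and had gone through conditioned place preference training for 10 days. The Ctrl + Saline group (n = 3) carried the control virus and received saline only. The Ctrl + Morphine group (n = 4) carried the same virus and received 5 injections of morphine at 10 mg/kg. A virus that expresses a short hairpin RNA against Kdm7a, a histone lysine demethylase, was carried by 5 mice given saline (Kdm7a-shRNA + Saline) and 4 given morphine (Kdm7a-shRNA + Morphine), otherwise treated like the control mice. The mPFC was collected on day 17, which was withdrawal day 7, directly after the second place preference test that followed training. The hairpin is driven by the U6 promoter, which is not specific to a cell type, and in which cells Kdm7a was lowered was not measured.

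Cholesterol in the brain is made almost entirely on site, because lipoproteins of the blood do not cross the blood-brain barrier. The pathway runs from acetyl-CoA through mevalonate to squalene, and from squalene through lanosterol to cholesterol. When sterols fall, the transcription factors SREBP-1 and SREBP-2 (encoded by Srebf1 and Srebf2) are carried by Scap from the endoplasmic reticulum to the Golgi and cleaved, and the released fragment switches on the enzyme genes together with Insig1, whose product holds Scap back in the endoplasmic reticulum. Surplus cholesterol is turned into oxysterols, which activate the nuclear receptors LXR (Nr1h2, Nr1h3) and with them the efflux genes Abca1, Abcg1 and Apoe.

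Hmgcs1 (ENSMUSG00000093930, chr13:119690379-119708260, plus strand in GENCODE vM21 on GRCm38) encodes HMG-CoA synthase, which makes HMG-CoA on the way to mevalonate. Idi1 (ENSMUSG00000058258, chr13:8885501-8892451, plus strand) encodes isopentenyl diphosphate isomerase. Fdft1 (ENSMUSG00000021273, chr14:63145150-63179578, minus strand) encodes squalene synthase, the first enzyme committed to sterols. Sqle (ENSMUSG00000022351, chr15:59315077-59331192, plus strand) encodes squalene epoxidase, and Lss (ENSMUSG00000033105, chr10:76531588-76557138, plus strand) lanosterol synthase, which closes the sterol rings. Dhcr7 (ENSMUSG00000058454, chr7:143823145-143848410, plus strand) encodes the reductase of the last step of one branch. Insig1 (ENSMUSG00000045294, chr5:28071363-28078662, plus strand) encodes the sterol-sensing anchor of Scap. Hmgcs1, Idi1, Fdft1 and Lss overlap a gene on the other strand (Gm48342, Gm48574, Ctsb and 4930483K19Rik), and whether the counting used strand is not given in the sources used here, so reads of such pairs may not be separable.

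SREBPs act through short promoter elements, so the promoters were read for them. RefSeq promoter windows of 300 bases (250 before the start site and 50 after it, GRCm38.p6) were held for Hmgcs1, Idi1, Lss, Insig1 and Dhcr7, the last with 3 windows. The 250 bases before the start site are printed for Hmgcs1 (chr13:119690101-119690350), the only one of the 7 windows with the SRE-1 letters, and for Idi1 (chr13:8885356-8885605) and Insig1 (chr5:28071162-28071411), which hold CCAAT but not SRE-1, all on the plus strand and 5′ to 3′. Capitals mark SRE-1 (TCACNCCAC) and the NF-Y letters CCAAT, read on both strands, so that ATTGG is CCAAT on the other strand.
Hmgcs1: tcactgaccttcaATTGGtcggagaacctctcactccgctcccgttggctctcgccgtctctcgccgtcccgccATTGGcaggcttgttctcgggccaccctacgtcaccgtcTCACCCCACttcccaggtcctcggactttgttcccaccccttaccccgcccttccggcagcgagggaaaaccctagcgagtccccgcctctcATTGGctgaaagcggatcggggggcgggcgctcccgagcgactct
Idi1: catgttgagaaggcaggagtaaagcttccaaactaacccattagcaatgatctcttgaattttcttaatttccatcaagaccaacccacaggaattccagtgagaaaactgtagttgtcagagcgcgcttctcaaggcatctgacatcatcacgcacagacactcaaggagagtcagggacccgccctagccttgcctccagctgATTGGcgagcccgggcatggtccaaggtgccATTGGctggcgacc
Insig1: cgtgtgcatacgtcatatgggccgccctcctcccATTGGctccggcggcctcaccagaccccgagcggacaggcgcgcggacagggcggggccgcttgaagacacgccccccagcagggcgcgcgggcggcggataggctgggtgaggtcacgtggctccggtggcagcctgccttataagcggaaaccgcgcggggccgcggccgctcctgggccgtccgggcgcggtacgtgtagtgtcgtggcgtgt
The SRE-1 match of Hmgcs1 began at position -137 from the start site. SRE-1 letters were present in 1.24% of 32851 mouse promoter windows and the looser TCACNCNAC, which contains every SRE-1 match, in 2.7%. CCAAT was present in 5 of the 7 windows against 37.4% of all windows, with at least 1 match for each of the 5 genes, and the GC box GGGCGG in 6 of the 7 against 35.7%. These are matches of letters in a fixed window. Over the 73 windows of 56 cholesterol and SREBP genes, the 5 above included, CCAAT was present in 53.4%, the GC box in 64.4% and SRE-1 in 2.74%.

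Between 6596991 and 12418112 reads per mouse were counted, and levels are given as normalised CPM, the count relative to the library total after correction with edgeR's TMM factors. The TMM factors were 1.02 to 1.07 in the Ctrl mice and 0.913 to 0.991 in the Kdm7a-shRNA mice. A gene passed where its fold was 1.5 or more with an adjusted p below 0.05, by edgeR's quasi-likelihood test with Benjamini-Hochberg adjustment over all tested entries. The knockdown itself was checked first. Kdm7a was at 9.78, 9.08 and 9.41 normalised CPM in the Ctrl + Saline mice and at 7.79, 6.19, 8.89 and 8.02 in the Ctrl + Morphine mice. It was at 5.74, 4.95, 6.04, 6.07 and 4.92 in the Kdm7a-shRNA + Saline mice and at 6.28, 4.44, 3.01 and 6.04 in the Kdm7a-shRNA + Morphine mice. Kdm7a levels were also lower in every Ctrl + Morphine mouse than in every Ctrl + Saline mouse (log2 fold change -0.29, adjusted p = 0.643). These 2 groups did not overlap for 12.4% of all tested entries. The 2 saline groups did not overlap for Kdm7a, as was so for 23.7% of all tested entries. Kdm7a fell with the knockdown under saline by 0.76 on the log2 scale (SE 0.204, adjusted p = 0.0153). Under morphine 1 Kdm7a-shRNA mouse lay above the lowest control mouse, and the log2 fold change of Kdm7a was -0.67 (SE 0.206, adjusted p = 0.0506).

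None of the 7 genes passed in any comparison, while the highest and the lowest group mean fell in the same groups for most of them. The mean was highest in the Ctrl + Morphine group for 6 of the 7 and in the Kdm7a-shRNA + Morphine group for Dhcr7. It was lowest in the Kdm7a-shRNA + Saline group for 5 of them and in the Ctrl + Saline group for Hmgcs1 and Dhcr7. No 2 groups that were compared differed past the threshold for any of the 7. The tissue was bulk mPFC, in which fewer cells of a type and less RNA per cell cannot be told apart.

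**Figure D1:**
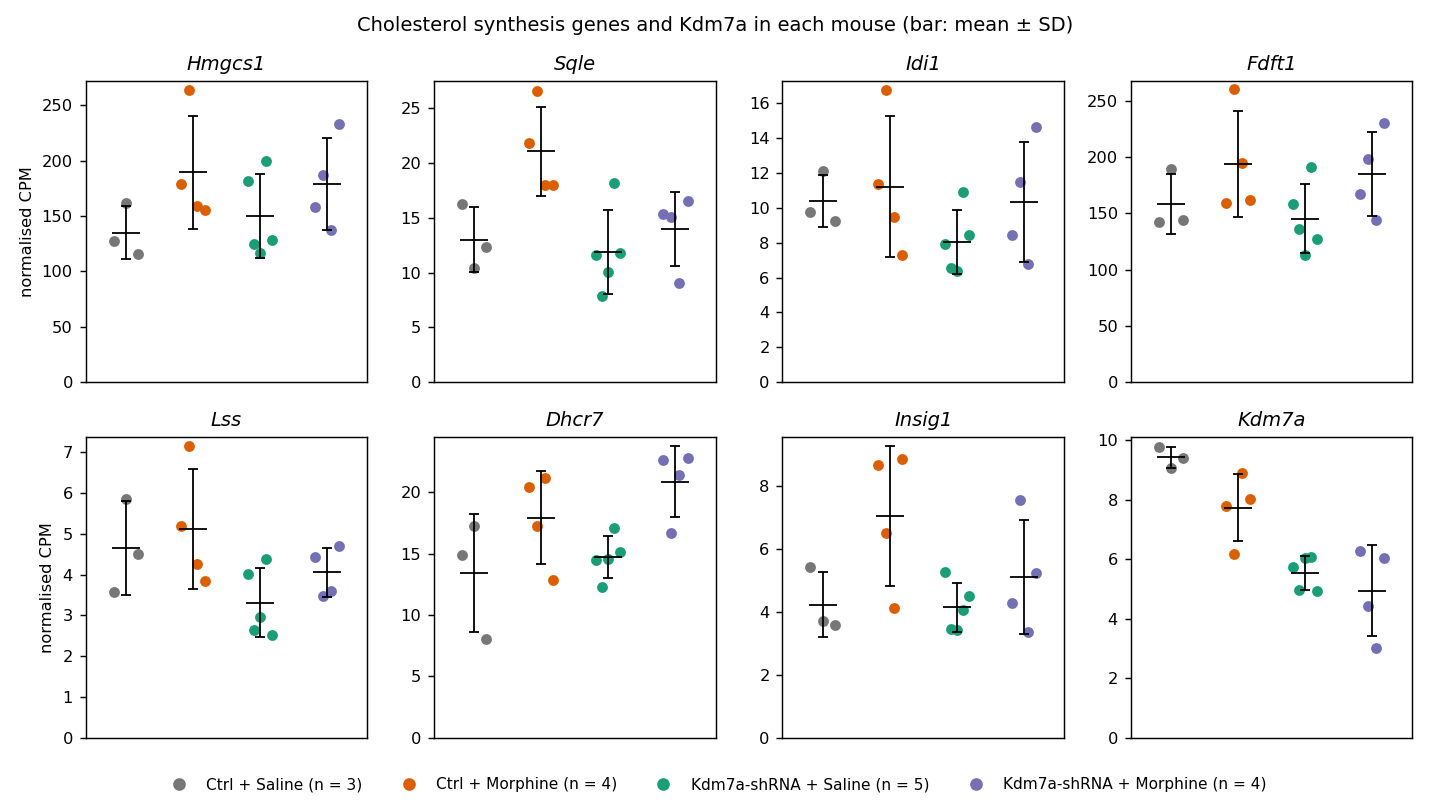
Normalised CPM (linear axis from 0) of the 7 genes and of Kdm7a in each of the 16 mice by group, with the mean and SD as bars. The Ctrl + Morphine mean is the highest for 6 of the 7 genes, groups overlap for most of them, and Kdm7a is lower in the Kdm7a-shRNA groups.

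Sqle levels were separated between morphine and saline under the control virus. It was at 16.3, 10.4 and 12.3 normalised CPM in the Ctrl + Saline mice and at 21.9, 26.6, 18.02 and 17.97 in the Ctrl + Morphine mice. Every Ctrl + Morphine mouse was above every Ctrl + Saline mouse, and the means were 21.1 ± 4.07 (SD, n = 4) and 13.0 ± 2.97 (SD, n = 3). The log2 fold change was 0.70 (SE 0.26, 95% interval 0.157 to 1.25, adjusted p = 0.283). Sqle was the only one of the 7 whose groups did not overlap here, as was so for 12.4% of all tested entries, and 0% of the entries were called in this comparison.

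Insig1, the feedback gene, had the highest fold change of the 7 in the same comparison. It was at 5.42, 3.71 and 3.58 normalised CPM in the Ctrl + Saline mice and at 8.69, 6.51, 4.14 and 8.88 in the Ctrl + Morphine mice. One Ctrl + Morphine mouse lay within the saline range and the other 3 above it. The log2 fold change of Insig1 was 0.74 (SE 0.3, 95% interval 0.115 to 1.38, adjusted p = 0.33).

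Hmgcs1 was at 127, 162 and 116 normalised CPM in the Ctrl + Saline mice and at 179, 264, 159 and 156 in the Ctrl + Morphine mice. The groups overlapped narrowly, with a log2 fold change of 0.49 (SE 0.228, adjusted p = 0.413). Dhcr7 was at 14.9, 17.3 and 8.08 in Ctrl + Saline and at 20.5, 17.3, 21.2 and 12.8 in Ctrl + Morphine, with a log2 fold change of 0.41 (SE 0.224, adjusted p = 0.498). Fdft1 was at 142, 189 and 144 against 159, 260, 195 and 162, a log2 fold change of 0.29 (SE 0.203, adjusted p = 0.616). Idi1 (9.78, 12.1 and 9.27 against 11.4, 16.8, 9.49 and 7.28) and Lss (3.57, 5.86 and 4.5 against 5.19, 7.15, 4.26 and 3.85) had the lowest fold changes, 0.11 and 0.13 on the log2 scale.

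All 7 log2 fold changes for morphine under the control virus were above 0. Their median was 0.41 against -0.014 over all tested entries and 0.0368 over the 14444 known genes among them. By edgeR 3 of the 7 had an unadjusted p under 0.05 and 0 passed, against 11.7% of all entries with an unadjusted p under 0.05. Because the 7 were chosen with earlier results of these data known, these shares are descriptive. DESeq2 also passed 0 of the 7, and 190 of all entries. Replicate 2 of the Ctrl + Morphine group was among the 3 highest of all mice for 5 of the 7. Without it the log2 fold changes of Idi1 and Lss were -0.15 and -0.07, that of Hmgcs1 was 0.29 and that of Fdft1 0.12. Those of Sqle, Dhcr7 and Insig1 were 0.57, 0.43 and 0.78 without it.

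Under the Kdm7a-shRNA virus the 7 log2 fold changes for morphine were again above 0, from 0.22 to 0.50. Their median was 0.29 against -0.005 over all entries and 0.0004 over known genes. None of the 7 passed, and 0.00531% of all entries were called. By edgeR 1 of the 7, Dhcr7, had an unadjusted p under 0.05, as did 7.02% of all entries, and DESeq2 passed 0 of the 7. Dhcr7 was at 14.5, 12.3, 14.6, 17.1 and 15.2 normalised CPM in the Kdm7a-shRNA + Saline mice and at 22.7, 16.7, 21.4 and 22.8 in the Kdm7a-shRNA + Morphine mice. Only the lowest morphine mouse lay within the saline range. The log2 fold change of Dhcr7 was 0.50 (SE 0.193, 95% interval 0.0962 to 0.907, adjusted p = 0.675).

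The other 6 overlapped more widely between these groups. Fdft1 was at 158, 136, 113, 192 and 127 in Kdm7a-shRNA + Saline and at 168, 198, 144 and 230 in Kdm7a-shRNA + Morphine, a log2 fold change of 0.35 (SE 0.177, adjusted p = 0.739). Hmgcs1 was at 182, 125, 116, 199.9 and 129 against 158, 187, 138 and 233, with 0.25 on the log2 scale (SE 0.198). Idi1, Lss, Insig1 and Sqle had 0.35, 0.29, 0.29 and 0.22, with adjusted p from 0.804 (Idi1) to 0.86 (Sqle).

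The morphine effect was also averaged over both viruses, a comparison added after the data had been seen. The 7 genes too were chosen with earlier results of these data known, so shares set beside all entries are descriptive. The averaged log2 fold changes ran from 0.21 for Lss to 0.52 for Insig1. Their median was 0.37 against 0.002 over all entries and 0.028 over known genes. By edgeR 5 of the 7 (Dhcr7, Sqle, Insig1, Hmgcs1 and Fdft1) had an unadjusted p under 0.05 where 8.36% of all entries did. None passed, as 0% of all entries were called, and DESeq2 passed 0 of the 7 and 5 of all entries. The lowest adjusted p was that of Dhcr7 (log2 fold change 0.46, SE 0.148, adjusted p = 0.482). With each mouse left out in turn, the averaged log2 fold change stayed above 0 for each of the 7. In the same averaged comparison 10 of 10 neuron markers were above 0 (median 0.12) and 10 of 10 microglia markers below 0 (median -0.31), with none passing, and their part in the values of the 7 genes was not tested.

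The interaction of knockdown and treatment, which asks whether the knockdown effect differed between morphine and saline, was called for 0.085% of all entries. It was called for none of the 7 by edgeR or DESeq2, and 0 of the 7 had an unadjusted p under 0.05. The interaction was -0.48 for Sqle (95% interval -1.21 to 0.247) and -0.45 for Insig1 (-1.3 to 0.386) on the log2 scale, so that a morphine effect of the same size under both viruses and one that differed by 1.5-fold were both within the intervals.

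**Figure D2:**
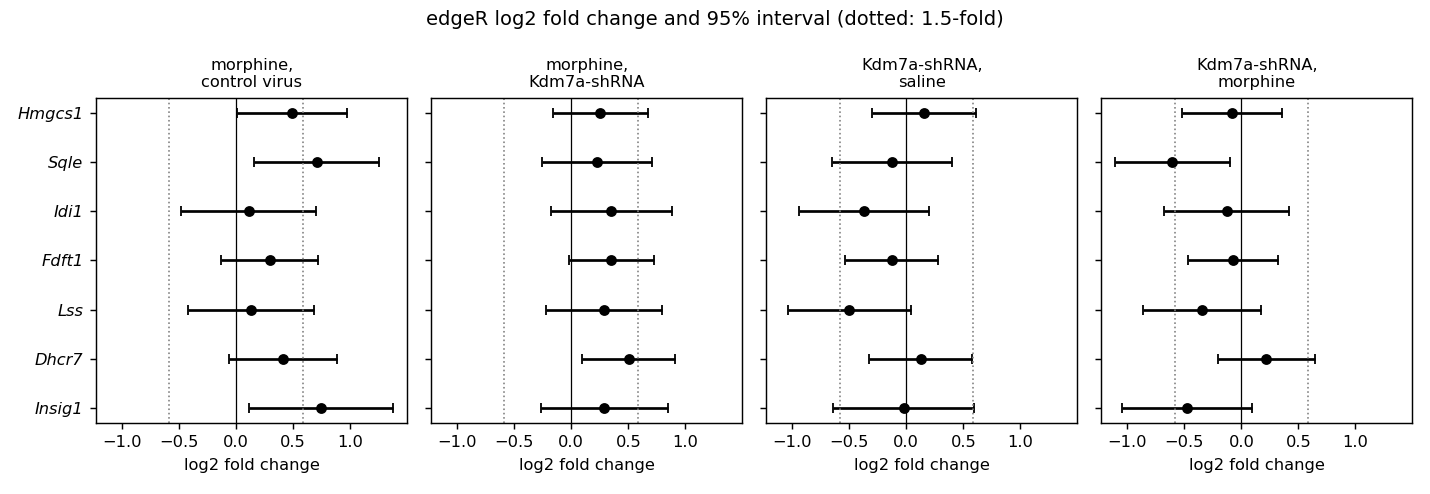
edgeR log2 fold change (points) with 95% interval (bars) of the 7 genes for morphine against saline under each virus and for Kdm7a-shRNA against control virus under each treatment, with 1.5-fold as dotted lines. All 7 points are above 0 in both morphine comparisons, and 6 of the 7 are below 0 for the knockdown under morphine.

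The knockdown comparisons share the saline and morphine groups with the morphine comparisons, so their values are not independent. Under morphine, 6 of the 7 log2 fold changes for Kdm7a-shRNA against the control virus were below 0. The median of the 7 was -0.13 against -0.0045 over all entries and 0.0452 over known genes. None of the 7 passed, where 7.69% of all entries were called. Sqle was at 15.3, 15.1, 9.02 and 16.5 normalised CPM in the Kdm7a-shRNA + Morphine mice, all below the lowest Ctrl + Morphine mouse, with a log2 fold change of -0.60 (SE 0.238, 95% interval -1.1 to -0.103, adjusted p = 0.117). It was the only one of the 7 with an unadjusted p under 0.05, where 25.5% of all entries had one, and the only one whose groups did not overlap, as was so for 13.9% of all entries. Insig1 was at 4.29, 7.55, 3.35 and 5.23 and had -0.48 (SE 0.271, adjusted p = 0.286), and Lss, at 4.44, 3.48, 3.61 and 4.7, had -0.34 (SE 0.247). Idi1, at 8.43, 11.5, 6.79 and 14.6, had -0.13 (SE 0.261). Dhcr7 was the one above 0, at 0.22 (SE 0.203). Without replicate 2 of the Ctrl + Morphine group, or without replicate 3 of the Kdm7a-shRNA + Morphine group, the values of Hmgcs1, Idi1 and Fdft1 turned above 0 (0.03 to 0.13), while that of Sqle stayed between -0.70 and -0.43 whichever mouse was left out.

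Under saline 5 of the 7 log2 fold changes for the knockdown were below 0 and 2 above. The median of the 7 was -0.12 against 0.015 over all entries and 0.101 over known genes. None of the 7 passed, where 16.7% of all entries were called, and none had an unadjusted p under 0.05 where 34.7% of all entries did. Lss had the lowest value. It was at 4.02, 2.65, 2.96, 4.39 and 2.51 normalised CPM in the Kdm7a-shRNA + Saline mice, which overlapped the Ctrl + Saline mice, with a log2 fold change of -0.50 (SE 0.257, adjusted p = 0.177). Idi1, at 7.93, 6.57, 6.4, 10.9 and 8.44, had -0.37 (SE 0.271). Sqle was at 11.6, 7.83, 10.1, 18.2 and 11.8 and Insig1 at 5.29, 3.46, 3.44, 4.05 and 4.52, with -0.12 and -0.02. Fdft1 had -0.13 (SE 0.193), and Hmgcs1 and Dhcr7 were above 0, at 0.15 (SE 0.217) and 0.13 (SE 0.215). Averaged over both treatments, where 17.6% of all entries were called, the log2 fold changes of the 7 ran from -0.42 for Lss (SE 0.178, adjusted p = 0.0877) to 0.17 for Dhcr7, and 0 passed. Lss and Sqle (-0.36, SE 0.172, adjusted p = 0.128) had an unadjusted p under 0.05, as did 38.8% of all entries. DESeq2 passed none of the 7 in any knockdown comparison.

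The levels of Hmgcs1, Idi1, Fdft1 and Lss varied together from mouse to mouse within groups, and those of Sqle with Hmgcs1 and Idi1. Replicates 2 and 3 of the Kdm7a-shRNA + Saline group were among the 3 lowest of all mice for 7 and 6 of the genes, and replicate 4 of the Kdm7a-shRNA + Morphine group was among the 3 highest for 4. Deviations of log2 CPM from the group mean were correlated over the 16 mice for the 21 pairs of genes. Pearson's r was above 0 for 19 pairs, with a median of 0.459. After adjustment over the 21 pairs, 8 pairs had an adjusted p under 0.05 for Pearson's r and 6 for Spearman's rho (100000 two-sided permutations of mice within groups). The strongest pair was Hmgcs1 with Fdft1 (r = 0.928, permutation p = 0.00017, adjusted 0.00179, rho = 0.829, permutation p = 0.00153). Without the 2 mice farthest from the median of Hmgcs1 it was 0.879. Hmgcs1 with Idi1 had r = 0.896 (permutation p = 3e-05, rho = 0.921, permutation p = 0.0001), and 0.834 without 2 mice. Idi1 with Fdft1 had r = 0.854 (permutation p = 0.00046, rho = 0.762, permutation p = 0.00495), and 0.768 without 2 mice. Hmgcs1 with Lss had r = 0.824 (permutation p = 0.0021, rho = 0.724, permutation p = 0.00597), and 0.708 without 2 mice. Sqle with Idi1 had r = 0.711 (permutation p = 0.00333, rho = 0.671, permutation p = 0.0106), and 0.582 without 2 mice. Sqle with Fdft1 and with Lss had r = 0.557 and 0.459, with adjusted permutation p = 0.108 and 0.191.

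Dhcr7 and Insig1 stood outside this pattern. Their 11 pairs had r from -0.195 to 0.459, and no pair had an adjusted p under 0.05. Dhcr7 with Insig1 had r = -0.195 (permutation p = 0.499, rho = -0.127, permutation p = 0.675). That these correlations are lower than those among the other 5 genes was not tested.

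The same mice differed in the levels of cell type markers. The summed level of 10 microglia markers, none of them at 0 in any mouse, was 890 to 1261 normalised CPM in the Ctrl + Saline group, 558 to 1149 in Ctrl + Morphine, 1815 to 5315 in Kdm7a-shRNA + Saline and 1172 to 5080 in Kdm7a-shRNA + Morphine. That of 10 neuron markers was 3635 to 4744, 3291 to 4915, 2549 to 4271 and 2681 to 4915. Between Ctrl + Saline and Ctrl + Morphine the sums of astrocyte markers did not overlap (9398 to 11831 against 7666 to 9304). Nor did those of cortical excitatory and inhibitory neuron markers (536 to 630 against 676 to 875) or striatal neuron markers (87.4 to 111 against 139 to 169). Aldoc made up most of the astrocyte sum (1145565 counts against 78319 of Slc1a2, the next). Of the single markers 3 of 10 astrocyte, 5 of 10 cortical and 4 of 8 striatal ones had a log2 fold change above 0 for morphine. Over all tested entries 12.4% did not overlap between these 2 groups. The microglia, neuron, oligodendrocyte, and endothelial and mural sums overlapped there. Within groups, Fdft1 had r = -0.919 with the microglia sum (permutation p = 2e-05, rho = -0.915, permutation p = 2e-05) and r = 0.902 with the neuron sum (permutation p = 0.00013, rho = 0.835, permutation p = 0.00075). Without the 2 mice farthest from the median of the marker sum these were -0.942 and 0.866. Hmgcs1 had r = -0.899 with the microglia sum (permutation p = 0.0001, rho = -0.868, permutation p = 0.00099) and 0.877 with the neuron sum (permutation p = 0.00076, rho = 0.744, permutation p = 0.00676), at -0.919 and 0.819 without 2 mice. In all 42 relations were read. They were of the 7 genes with 4 marker sums (microglia, neuron, astrocyte and oligodendrocyte), the total count and the share of reads on loci assembled by the authors. Of these, 4 with each of the microglia and neuron sums had an adjusted permutation p under 0.05 for r (Hmgcs1, Idi1, Fdft1 and Lss). For rho 3 of them (Fdft1 with both, Hmgcs1 with microglia) also had one, and none of the other relations did. Dhcr7 and Insig1 had r = -0.147 and -0.339 with the microglia sum and 0.37 and 0.0315 with the neuron sum. Sqle lay between, with r = -0.699 with the microglia sum (permutation p = 0.014, adjusted 0.0653, rho = -0.615, permutation p = 0.0251) and 0.634 with the neuron sum (permutation p = 0.0285, adjusted 0.119, rho = 0.515, permutation p = 0.0676), at -0.569 and 0.434 without 2 mice. The part of cell type content in the levels of the 7 genes was not tested.

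**Figure D3:**
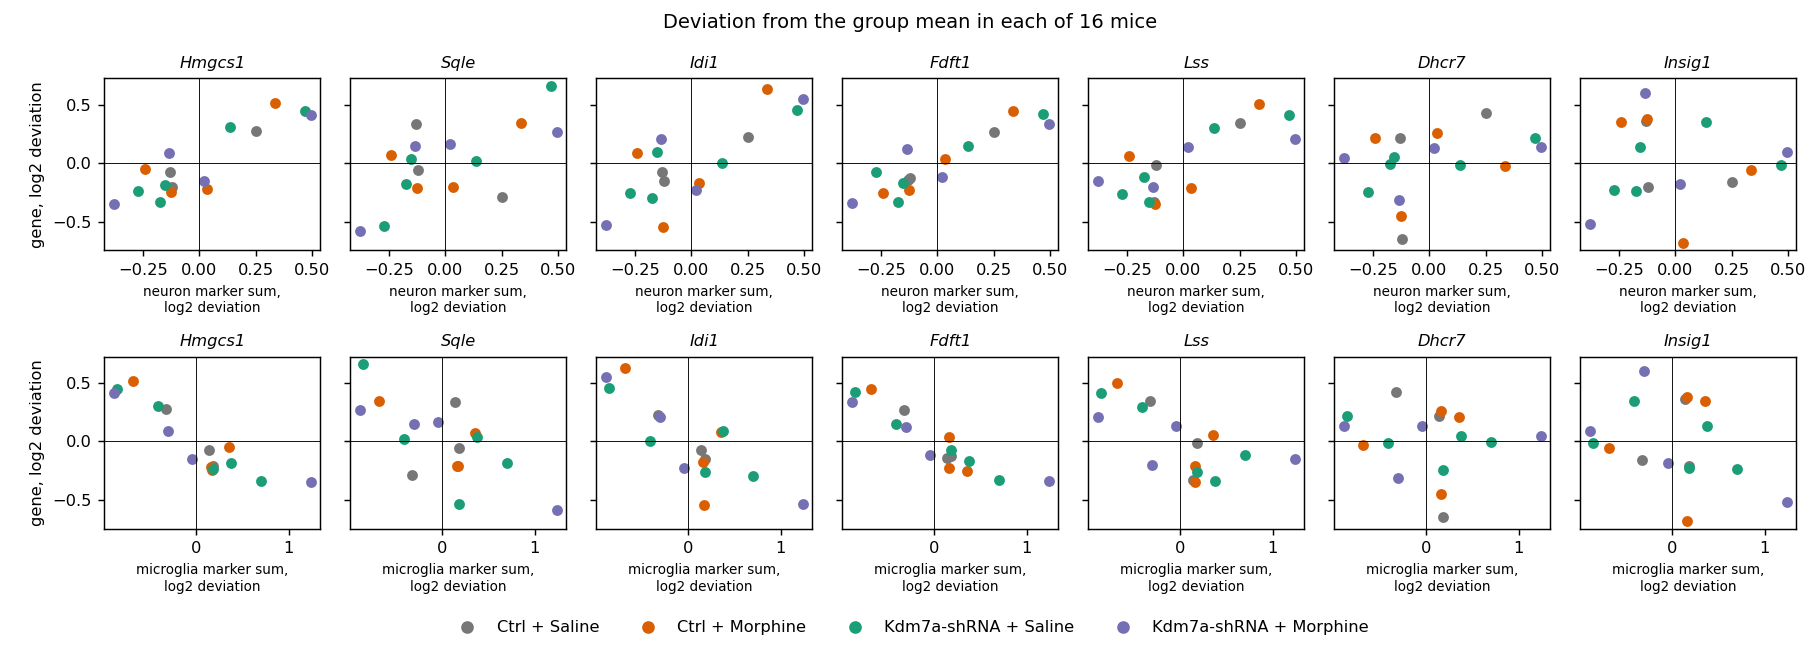
Deviation of each of the 7 genes from its group mean (log2 CPM) against the deviation of the summed neuron markers (upper row) and microglia markers (lower row, both log2 CPM) in the 16 mice, coloured by group. Hmgcs1, Idi1, Fdft1 and Lss are higher where the neuron sum is higher and the microglia sum is lower. The correlations of Dhcr7 and Insig1 are weaker (r from -0.339 to 0.37).

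The known genes outside all lists whose levels most resembled the mean standardized log2 CPM of the 7 over the 16 mice were Neurl1b (r = 0.948), Gm43738 (0.932), Lzts1 (0.924), Mpped1 (0.912) and Wdr13 (0.904). Among the genes of the cholesterol lists Stard4, a cytosolic sterol carrier, had r = 0.918 and Cyp51, lanosterol demethylase, 0.907. Srebf2 had r = 0.51 and Srebf1 -0.658, and Abca1 and Npc2 had -0.742 and -0.757. These values are descriptive, the points share their libraries, and the highest were picked from all genes.

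The rest of the pathway was read from lists of 68 further genes, 66 of them tested (the other 2 had too few counts). None of the 66 passed for morphine under either virus, averaged over both or in the interaction by edgeR. The share of the 66 with an unadjusted p under 0.05 was 12.1% (8 genes) under the control virus against 11.7% of all entries, 16.7% (11 genes) against 7.02% under the Kdm7a-shRNA virus, 15.2% (10 genes) against 8.36% on average and 10.6% (7 genes) against 10.7% in the interaction. DESeq2 passed 0, 0, 0 and 1 (Me1, malic enzyme). Of the 12 genes of the sterol steps after squalene, Sqle, Lss and Dhcr7 included, 10 had a log2 fold change above 0 for morphine under the control virus and 12 under the Kdm7a-shRNA virus, with medians of 0.25 and 0.28. Cyp51 had 0.32 and 0.50 in these comparisons. The mevalonate and squalene steps had 8 of 10 above 0 in both, with medians of 0.19 and 0.22.

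With the knockdown, genes of the pathway passed in both directions. Averaged over both treatments, Hsd17b7, a sterol demethylation enzyme, fell by 0.65 on the log2 scale (adjusted p = 0.00601) and Elovl6, a fatty acid elongase, by 0.81 (adjusted p = 0.000899). Under saline Hsd17b7 and Elovl6 also passed (-1.07 and -1.05), and Mvk, mevalonate kinase, rose by 0.81 (adjusted p = 0.0183).

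Of the SREBP genes, Srebf1 passed and Srebf2 did not reach the fold. Srebf1 was at 34.6, 36.4 and 31.4 in Ctrl + Saline, at 40.5, 28.3, 38.6 and 28.9 in Ctrl + Morphine, at 50.4, 89.98, 89.5, 45.1 and 87.1 in Kdm7a-shRNA + Saline and at 64.5, 49.4, 107 and 35.2 in Kdm7a-shRNA + Morphine. It rose on average by 1.00 on the log2 scale (SE 0.208, adjusted p = 0.00184), by 1.08 under saline (adjusted p = 0.0187), and had 0.91 under morphine (adjusted p = 0.052). Srebf2 was at 33.4, 31.2 and 38.9, at 37.04, 34.7, 41.1 and 39.05, at 23.2, 20.5, 23.6, 29.02 and 22.6, and at 26.4, 31.5, 22.4 and 27.4 in the same order of groups, so that under both treatments the knockdown mice were all below their controls. Groups that did not overlap were found for 23.7% of all entries under saline and for 13.9% under morphine. The averaged log2 fold change of Srebf2 was -0.52 (SE 0.0956, adjusted p = 0.000766), which is less than 1.5-fold. With library size as the only scaling Srebf2 passed in all 3 knockdown comparisons. Scap had 0.33 under saline and -0.27 under morphine (adjusted p = 0.151 and 0.285).

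Several genes of cholesterol efflux, LXR and turnover passed as higher with the knockdown. Of 18 tested, 17 had an averaged log2 fold change above 0. The median of the 18 was 0.56 against 0.01 over all entries and 0.0723 over known genes. Of the 18, 7 (38.9%, against 17.6% of all entries) passed, all higher: Abca1 (1.20), Apoe (1.07), Clu (1.17), Ch25h (2.40), Cyp27a1 (0.64), Soat1 (0.72) and Lcat (0.65). Ch25h, which makes an oxysterol, was at 1.85, 2.24 and 1.19 normalised CPM in Ctrl + Saline and 1.6, 0.854, 0.73 and 0.749 in Ctrl + Morphine. It was at 3.45, 8.76, 11.02, 3.6 and 10.95 in Kdm7a-shRNA + Saline and 3.98, 1.92, 17.8 and 2.01 in Kdm7a-shRNA + Morphine. The groups of neither treatment overlapped, as was so for 23.7% of all entries under saline and 13.9% under morphine. Clu, an apolipoprotein gene, passed under saline (1.31, adjusted p = 0.000821) and under morphine (1.03, adjusted p = 0.00589), also without any 1 mouse. Beside these genes, microglia markers rose: 9 of 10 passed on average and under saline and 6 of 10 under morphine, with a median of 1.24 on average. Of the astrocyte markers 4 of 10 and of the endothelial and mural markers 3 of 10 passed higher on average, and of the oligodendrocyte markers 2 of 12. The part of cell type content in the efflux genes was not tested.

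In the list of cholesterol uptake and intracellular transport, 2 of 10 (20%, against 17.6% of all entries) passed on average, both higher. They were Npc2 (1.30 on the log2 scale), which carries cholesterol out of the lysosome, and Lipa (0.71), the lysosomal acid lipase. Of 13 genes of fatty acid synthesis only Elovl6 passed on average. Over all entries 16.7% were called under saline and 7.69% under morphine. Under saline Acss2, acetyl-CoA synthetase (0.69), Fads2, a desaturase (0.82), and Me1, malic enzyme (0.75), rose beside the lower Elovl6. Also under saline, Apoe, encoding the main apolipoprotein of the brain (1.74), Soat1, which esterifies cholesterol (0.98), Nr1h2, encoding LXR beta (0.69), Npc2 (1.32) and Ch25h (2.07) rose. Under morphine Npc2 (1.27), the exporter gene Abcg1 (0.70), Clu and Ch25h (2.73) rose, and the reelin and lipoprotein receptor gene Lrp8 and the exporter gene Abcg4 fell by 0.70 and 0.62. In the test of the difference between the treatments none of these genes passed by edgeR, and Me1 passed by DESeq2.

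In all 6 of the 66 (9.09%) passed under morphine, 14 (21.2%) under saline and 13 (19.7%) on average. The shares of all entries were 7.69%, 16.7% and 17.6%. All entries include loci assembled by the authors, while the lists hold known genes only. Of 14444 known genes tested, 495 passed higher and 186 lower under morphine, 1318 and 431 under saline, and 1354 and 308 on average. The shares of the lists lay above those of the known genes. The lists were chosen with earlier results of these data known, and single mice moved their counts. Under saline the count was 7 without replicate 2 and 5 without replicate 3 of the Ctrl + Saline group. Under morphine it was 2 and 1 without replicates 3 and 4 of the Ctrl + Morphine group, and 3, 1 and 11 without replicates 1, 3 and 4 of the Kdm7a-shRNA + Morphine group. On average it was 20 without replicate 4 of the Kdm7a-shRNA + Morphine group. Leaving out any 1 mouse, the averaged calls of Srebf1, Npc2, Lipa, Elovl6, Abca1, Clu and Ch25h held in each fit, and so did those of Hsd17b7, Elovl6, Fads2, Me1 and Clu under saline. Under morphine the calls of Lrp8 and Abcg4 held in 2 of 8 such fits each, that of Abcg1 in 3, that of Npc2 in 4 and that of Ch25h in 5. Under saline that of Soat1 held in 1 of 8, that of Ch25h in 2 and those of Srebf1 and Nr1h2 in 5 each, and the averaged call of Cyp27a1 held in 5 of 16. With library size as the only scaling, Acss2, Nr1h2 and Soat1 under saline and Lipa, Cyp27a1 and Lcat on average no longer passed.

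**Figure D4:**
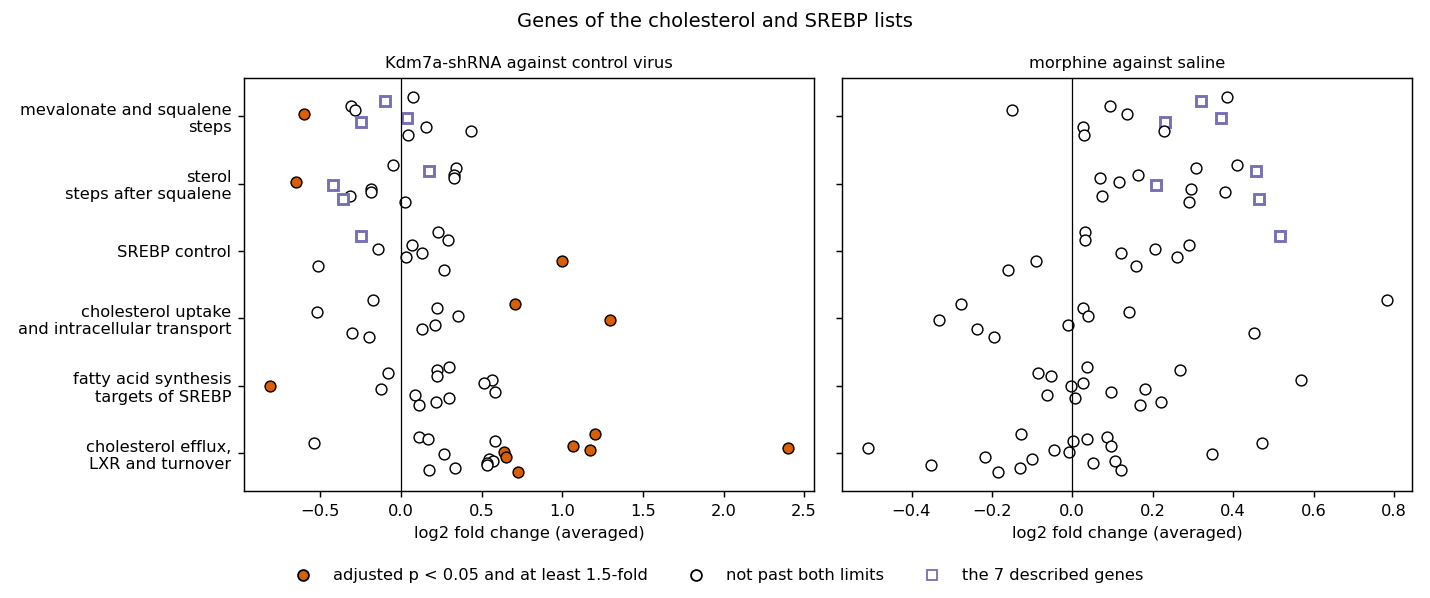
Log2 fold change of each tested gene of the 6 lists (rows) for the knockdown averaged over both treatments (left) and for morphine averaged over both viruses (right), each panel with its own axis. Filled points passed: 10 genes are higher and 3 lower on the left and none passed on the right, where all 7 of the described genes (squares) are above 0.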

How the data were processed

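RNA of the mPFC of 16 mice was sequenced as full-length cDNA on the Nanopore platform after 14 PCR cycles. Per the paper's methods, reads with a quality under 7 or shorter than 500 bp and ribosomal reads were removed, and full-length reads were clustered on mm10 with minimap2 and Pinfish and consolidated with cDNA Cupcake. Read length selection and PCR can favour some transcripts, and the counts are of amplified reads, so they carry PCR as well as counting error. The deposited count of a gene is the number of reads the authors assigned to it, without normalization. The deposited CPM is each count relative to its column total, as the authors computed it, matched here to within 4.99e-06, and was not tested. The submitters tested with edgeR (3.8.6 in their processing notes) at a fold of 1.5 and a false discovery rate of 0.05, thresholds kept here; their filter and scaling are not given in the sources used here.

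The analysis used R 4.3.3, edgeR 4.0.16 and limma 3.58.1: filterByExpr, TMM factors, 1 fit of all 16 mice with 1 coefficient per group, and quasi-likelihood tests adjusted over 18826 entries. Of these 14444 are known genes and the others loci assembled by the authors. Adjusted p-values are from this test unless DESeq2 1.42.0 is named. Standard errors are the log2 fold change over the square root of F, and 95% intervals use the test's degrees of freedom. The common biological coefficient of variation was 0.215. The fit was tested on simulated data. Normalised CPM is the count relative to total times TMM factor.

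The 7 genes, the gene lists and the markers were chosen with earlier results of these data known. Named are the 7 genes, Kdm7a, Srebf1, Srebf2, Scap, every list gene that passed and the 5 known genes most correlated with the 7. Cyp51 and Stard4 were named after their values were seen. Some list genes are counted but not reported here by name. The alternatives were RLE factors, library size only, no filter, at least 10 counts in every mouse, the compared groups alone, DESeq2, a replicate block, known genes only, the adjusted p alone and each mouse left out. Promoter windows are from RefSeq (GRCm38.p6), gene positions from GENCODE vM21.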

Additional observations from a re-analysis of the deposited data

How the results depend on the processing

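The 0 of 7 genes passing stayed 0 under every alternative in every comparison. The replicate number as a block gave 0 of 7 in each, and 9, 15 and 15 further list genes passing for the knockdown under morphine, under saline and on average. Mice with the same number are different animals, and the deviations of 21 same-numbered pairs had r from -0.102 to 0.395, with 6 over 0.1. Pairs with different numbers had r from -0.474 to 0.318. Whether the numbers mark something shared, such as a batch, was not tested. With library size only, the median of all entries moved by -0.107 and -0.132 in the knockdown comparisons under morphine and saline, the log2 fold change of Dhcr7 under saline was -0.00166, and that of Hmgcs1 on average was -0.077. With known genes only the latter was -0.022. The list genes passing under morphine were 3 with only the groups compared, those on average 30 by the adjusted p alone, and those of the interaction 1 by DESeq2. Leaving out each mouse in turn, list genes passing ranged from 1 to 11 for the knockdown under morphine, 5 to 19 under saline and 9 to 20 on average. The log2 fold change then ranged, for morphine under the control virus, from -0.15 to 0.27 for Idi1 and -0.074 to 0.35 for Lss. For the knockdown under morphine it ranged from -0.24 to 0.12 for Hmgcs1, -0.34 to 0.13 for Idi1 and -0.19 to 0.10 for Fdft1. Under saline the range was -0.33 to 0.031 for Sqle, -0.25 to 0.025 for Fdft1, -0.15 to 0.36 for Dhcr7 and -0.15 to 0.15 for Insig1, and on average -0.042 to 0.14 for Hmgcs1. In the interaction it was -0.094 to 0.23 for Fdft1, -0.059 to 0.36 for Lss and -0.14 to 0.38 for Dhcr7. Calls over all entries moved by more than 1.5 times with at least 10 counts in every mouse (697, 1852 and 1525 for the knockdown under morphine, under saline and on average, 2 for morphine under the Kdm7a-shRNA virus), with known genes only (446, 1420, 1458 and 2), with only the groups compared (685 under morphine, and 0 for morphine under the Kdm7a-shRNA virus), with the adjusted p alone (5190 on average), with no filter (34 in the interaction), with the block (6 in the interaction and 0 for morphine under the Kdm7a-shRNA virus) and with DESeq2 (190 and 26 for morphine under the control and the Kdm7a-shRNA virus, 5 on average and 227 in the interaction). Of the calls over all entries, known genes made up 495 of 538 higher and 186 of 910 lower under morphine, 1318 of 1398 and 431 of 1753 under saline, and 1354 of 1446 and 308 of 1870 on average. The cause of these moves was not tested. The standard errors of 0.18 to 0.30 of the pairwise comparisons and 3 to 5 mice a group limit what could pass.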
